A study of Mus musculus with 48 samples.

Results

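The MYC, MAX, MXD and MLX network is a group of basic helix-loop-helix leucine zipper transcription factors, and its 10 members Myc, Max, Mxd1, Mxd3, Mxd4, Mxi1, Mnt, Mlx, Mlxipl and Mga were followed here in the mouse liver. The members were taken by gene symbol, and all 10 were present among the 20622 genes measured. In each mouse, ribosome-protected fragments (RPFs, the stretches of messenger RNA covered by translating ribosomes) and the cytoplasmic RNA of that same liver were both sequenced, so that RNA level, ribosome occupancy and translation efficiency (TE, RPFs relative to RNA) could be compared. The 4 genotypes were wild type (WT), Ctnnb1ex3/+ (B, an allele of β-catenin that loses its exon 3 after Cre and then escapes degradation), R26-LSL-MYC (M, a MYC transgene at Rosa26 behind a lox-stop-lox cassette) and the 2 alleles together (BM, Ctnnb1ex3/+; R26-LSL-MYC). All mice, WT included, were labelled male, were 2 to 4 months old per the study's methods and received AAV8.TBG.Cre at 2e+11 genome copies (per mouse by the treatment label, per ml by the protocol), and the TBG promoter limits Cre to hepatocytes. Livers were taken 4 or 10 days after the virus, with 3 individual mice in each of the 8 groups (24 mice, 48 libraries). The tissue holds all cells of the liver, so fewer cells of a type and less RNA per cell cannot be told apart.

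MAX is the hub of the network. MYC binds DNA only as a dimer with MAX and recruits coactivators to promoters, where it drives genes of ribosome production, nucleotide synthesis and the cell cycle. The MXD proteins (Mxd1, Mxd3, Mxd4 and Mxi1) and MNT also dimerise with MAX but recruit the SIN3 and histone deacetylase corepressor, so that they oppose MYC at the same sites. MLX is the other hub: it pairs with some MXD proteins, with MNT and with the glucose-sensing factor ChREBP, which is encoded by Mlxipl and in hepatocytes activates glycolytic and lipogenic genes when carbohydrate is plentiful. MGA is a large MAX partner that also carries a T-box and forms part of a Polycomb-type repressor complex.

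Dimers of this network bind the E-box CACGTG, which is its own reverse complement. The E-box was searched in the window from 250 bases before to 50 bases after the start of each gene's RPF transcript on GRCm39, and is shown because it is the site of the network's own dimers. It was found in 4 of the 10 members, and in 1417 of 16249 windows of all genes (8.72%). The β-catenin partner motif CTTTGAT, searched on both strands, was found in 0 of the 10 members and in 515 of the 16249 windows (3.17%). The 4 stretches are printed 5′ to 3′ on the gene's strand with the E-box in capitals. In Max the E-box begins 25 bases before the transcript start (chr12:77009008-77009037, minus strand), in Mxd4 33 bases before it (chr5:34345256-34345285, minus strand), in Mlx 16 bases before it (chr11:100978064-100978093, plus strand) and in Mxd3 223 bases before it (chr13:55477810-55477839, minus strand). For Max, Mxd3 and Mlx this start is not the outer end of the annotated gene. The same holds for Myc, Mxd1, Mxi1 and Mlxipl, in which neither motif was found. The Myc transcript starts at 61859271 and its gene at 61857227. For Mxi1 these are 53317844 and 53298852, and for Mlxipl 135135755 and 135118744. The windows of Myc, Mxi1 and Mlxipl therefore lie inside the gene and do not reach its outer end.
Max: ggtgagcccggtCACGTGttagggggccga
Mxd3: gcgtcccgcgcgCACGTGtagcccaggccg
Mxd4: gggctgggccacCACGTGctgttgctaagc
Mlx: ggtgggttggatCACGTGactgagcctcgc

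RPF libraries held 9742197 to 14380713 counts in coding sequences and RNA libraries 3254141 to 6540116 expected counts. Summed hepatocyte marker RPFs (Alb, Ttr, Apoa1, Hnf4a, Fgb and Trf) lay at 93027 to 105939 CPM (counts scaled to a common library total) in WT at day 4 and at 25788 to 35534 CPM in BM at day 10, the lowest of the 8 groups. The summed β-catenin targets Glul, Axin2, Lgr5, Notum, Nkd1 and Tbx3 lay at 899 to 944 CPM in WT at day 4, at 3229 to 4906 in B and at 3893 to 4475 in BM. At day 10 this sum lay at 553 to 915 CPM in WT and 3482 to 5365 in B, and at 3760, 2582 and 1695 in BM mice 1, 2 and 3. BM day 10 mouse 1 stood apart from its mates: its log2 RPF CPM correlated with theirs across genes at r = 0.948 and 0.957, while the 22 other pairs of mates lay between 0.977 and 0.992. Where leaving this mouse out started or ended a call of a member, the value without it is given. Fold changes were scaled by TMM, which set the median log2 change over all genes against WT between -0.01 and 0.03 in RPFs and in RNA. Scaling by library totals alone moved that median up by 0.11 to 0.42 in RPFs and 0.19 to 0.55 in RNA, and the share of called genes that were higher went from 49.8 to 55.7% to 75.0 to 90.1% in RPFs and from 50.1 to 56.8% to 80.7 to 95.1% in RNA, so every direction below is relative to the bulk of genes.

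In WT liver, Mlx and Mlxipl carried the most ribosome footprints of the network and Mxd3 almost none. Per kilobase of coding sequence at day 4, the RPF level was 56.9 ± 6.15 CPM for Mlx, 40.9 ± 4.47 for Mlxipl and 28.6 ± 1.44 for Mxd4 (mean ± SD, n = 3). Max followed at 9.05 ± 0.457 and Myc at 8.56 ± 6.14. The remaining levels were 4.56 ± 1.66 for Mxi1, 4.19 ± 0.759 for Mxd1, 3.75 ± 0.496 for Mga, 2.03 ± 0.143 for Mnt and 0.0992 ± 0.172 for Mxd3. Myc and Max, and the neighbours Mxi1, Mxd1 and Mga, were closer to each other than the spread of their mice. In RNA the order was not the same: at day 4 Mxd4 had 28.8 ± 1.63 TPM (transcripts scaled by length and library total), Mlx 23.4 ± 0.817, Myc 15.8 ± 1.73, Mxi1 11.8 ± 1.64, Max 11.7 ± 1.33 and Mlxipl 8.77 ± 0.136. Mga followed with 6.51 ± 0.731 TPM, Mxd1 with 1.53 ± 0.171, Mnt with 0.440 ± 0.270 and Mxd3 with 0.130 ± 0.225. Thus Mlxipl stood just after Mlx by RPFs but below Mxi1 and Max by RNA. RPFs and RNA were aligned by different programs, so the comparison of the 2 orders is a description.

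Each genotype was first compared with WT of the same day, and the members called are given beside the share of all genes called. A member was called at an adjusted p under 0.1 in the quasi-likelihood test of edgeR (Benjamini-Hochberg over all genes). In RPFs at day 4, 0 of 9 tested members (all genes tested: 12.5%) were called in B, 6 of 10 (all genes tested: 33.3%) in M and 5 of 10 (all genes tested: 50.9%) in BM. At day 10 the counts were 1 of 9 (all genes tested: 25.2%) in B, 2 of 9 (all genes tested: 19.4%) in M and 6 of 9 (all genes tested: 46.8%) in BM. In B at day 4 the count at an unadjusted p under 0.05 was also 0, as was that of DESeq2. RNA gave 1 of 9 (all genes tested: 8.14%) in B, 4 of 8 (all genes tested: 23.7%) in M and 5 of 9 (all genes tested: 41.9%) in BM at day 4. The RNA counts at day 10 were 3 of 9 (all genes tested: 15.6%) in B, 3 of 9 (all genes tested: 15.7%) in M and 4 of 9 (all genes tested: 45.7%) in BM. Without BM day 10 mouse 1 the BM counts at day 10 were 7 in RPFs and 6 in RNA. Over all genes the counts without that mouse were 7611 of 11475 genes in RPFs and 6516 of 11412 genes in RNA. The BM counts of RPFs at day 4 and of RNA at day 10, and the M count of RPFs at day 10, stood near the share of all genes called, and no difference between a count and that share was tested. Where 10 members entered a fit of RPFs against WT, the tenth was Mxd3, which passed the filter on low counts only through the genotype where it was high; the other 9 gave 5 calls in M and 4 in BM. DESeq2 called 0, 1 and 4 members in RNA in B, M and BM at day 4, and 2, 2 and 3 at day 10. The RNA calls it did not make were Mxd4 in B, Mxd4, Mxi1 and Mlx in M and Max in BM at day 4, and Mlxipl in B, Mga in M and Mxd4 in BM at day 10 (adjusted p = 0.103 to 0.242 by DESeq2). In RPFs it did not call Mxi1 and Mga in M or Max in BM at day 4 (adjusted p = 0.113 to 0.176 by DESeq2). The median log2 change of the tested members in BM at day 10 was 0.75 in RPFs, beside 0.03 over all genes. The comparisons against WT at one day share the 3 WT mice. Where leaving out a single mouse ended a call whose value is printed, each such mouse is named with that value, left out alone. Some RNA calls counted below without a value were also lost without some single mouse. In BM against M at day 4 this was Max. In BM against B it was Max, Mxi1 and Mlx at day 4 and Mnt, Mlx and Mlxipl at day 10. Between the days it was Mlxipl in B and Mxd1 in BM.

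**Figure D1:**
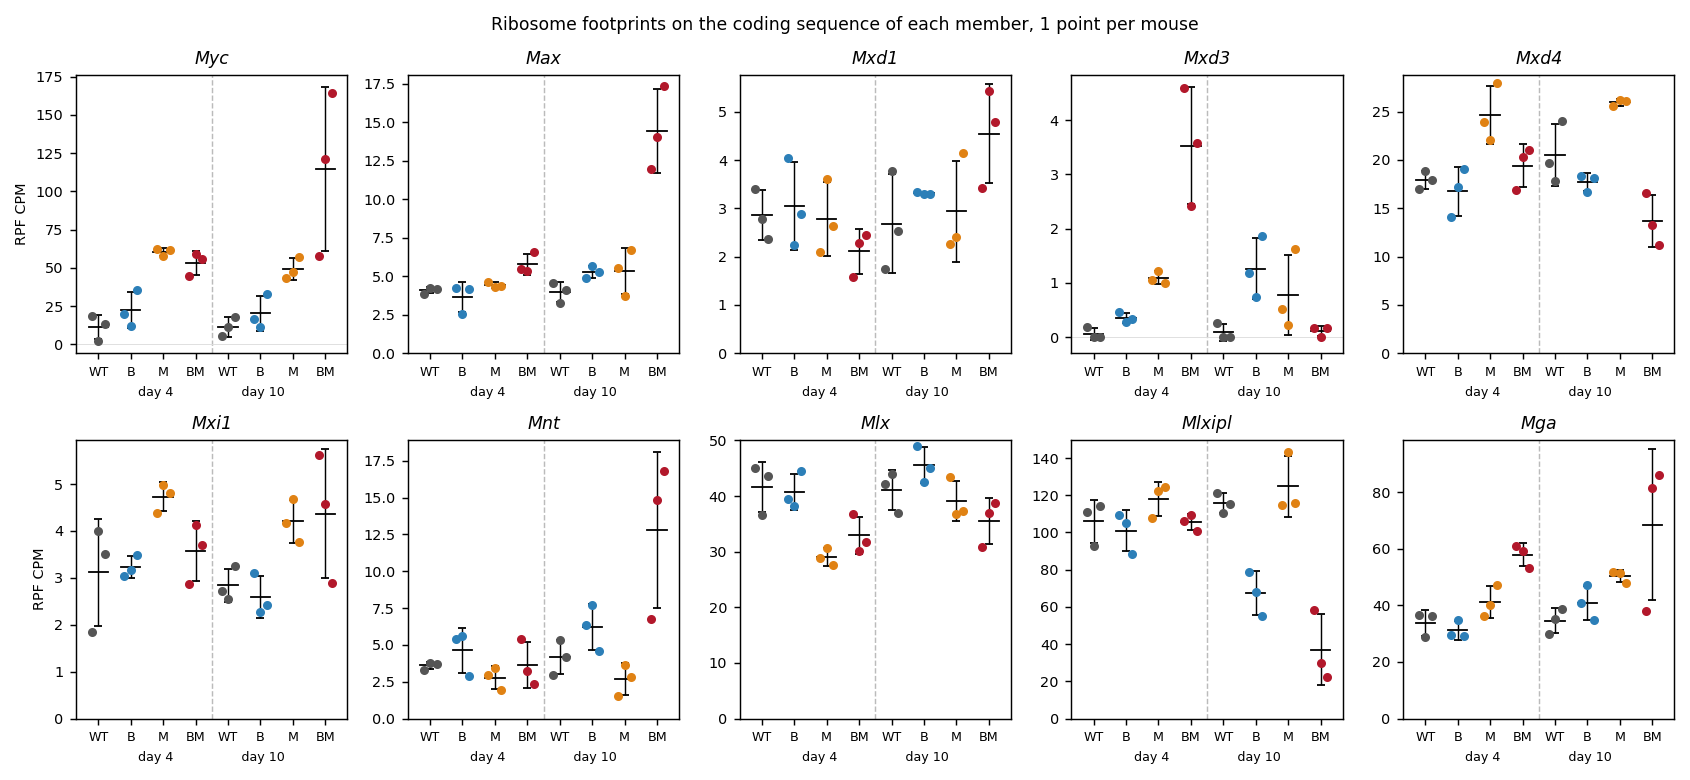
RPF CPM of each member in every mouse, by genotype and day, on a linear axis. Points are mice, and black lines are means with SD. Myc lies above all WT and B mice in every M and BM mouse, while Max and Mnt are highest and Mlxipl lowest in BM at day 10.

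Myc (ENSMUSG00000022346, GRCm39 chr15:61857227-61862223, plus strand), the oncogenic partner of MAX, was the most strongly raised member in RPFs in M and BM at both days other than the sparsely counted Mxd3. Reads of the transgene cannot be separated here from those of the endogenous gene, so RPFs, RNA and TE of Myc describe whatever reads of either aligned to the mouse gene. At day 4, Myc RPFs were 18.3, 2.43 and 13.1 CPM in the WT mice, 19.7, 11.9 and 35.3 in B, 62.1, 57.5 and 61.6 in M and 44.4, 59.2 and 56.0 in BM. At day 10 they were 5.16, 11.3 and 18.0 CPM in WT, 16.4, 11.2 and 33.1 in B, 43.6, 47.2 and 57.4 in M and 58.0, 121 and 164 in BM. The lowest of the 12 mice with the transgene (43.6 CPM) lay above the highest of the 12 mice without it (35.3 CPM). The log2 change against WT was 2.41 ± 0.40 (SE, adjusted p = 0.0020) in M and 2.22 ± 0.39 (SE, adjusted p = 0.00086) in BM at day 4. By day 10 it was 2.13 ± 0.34 (SE, adjusted p = 0.0085) in M and 3.32 ± 0.52 (SE, adjusted p = 0.0029) in BM. In B, where only β-catenin was altered, the log2 change was 0.94 ± 0.50 (adjusted p = 0.32) at day 4 and 0.84 ± 0.47 (adjusted p = 0.26) at day 10, and neither was called. The B and WT mice overlapped at both days. WT day 4 mouse 2 had 20 Myc RPFs, against 199 and 116 in its mates.

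Myc RNA was not called against WT in M or BM at either day. The RNA level was 28.3, 26.6 and 29.3 CPM in WT, 28.9, 30.5 and 34.9 in M and 19.6, 29.6 and 23.0 in BM at day 4, and the groups lay close together or overlapped. The log2 change in RNA was 0.16 ± 0.12 (adjusted p = 0.40) in M and -0.22 ± 0.15 (adjusted p = 0.28) in BM, where it turned to 0.32 under library totals. At day 10 Myc RNA was 22.1, 28.4 and 43.7 CPM in WT, 20.8, 21.8 and 26.6 in M and 20.9, 48.8 and 53.0 in BM. Here the log2 change was -0.43 ± 0.22 (adjusted p = 0.26) in M and 0.37 ± 0.35 (adjusted p = 0.44) in BM. BM mouse 1 was the lowest of its group, and without it the BM change in RNA was 0.70 (adjusted p = 0.023), which passed the threshold. So did the BM change at day 4 without BM mouse 2 (-0.39, adjusted p = 0.059) and the M change at day 10 without WT mouse 1 (-0.62, adjusted p = 0.096). Between genotypes with and without one allele, Myc RNA was lower in BM than in M at day 4 (-0.39 ± 0.15, adjusted p = 0.078) and than in B (-0.52 ± 0.21, adjusted p = 0.088), and higher in BM than in M at day 10 (0.83 ± 0.31, adjusted p = 0.086). The first of these calls was lost without M day 4 mouse 1, 2 or 3 or BM day 4 mouse 1 or 3 (log2 change -0.44 to -0.25, adjusted p = 0.11 to 0.28), the second lost without B day 4 mouse 3 or BM day 4 mouse 1 or 3 (log2 change -0.48 to -0.22, adjusted p = 0.18 to 0.41) and the third lost without M day 10 mouse 1, 2 or 3 or BM day 10 mouse 2 or 3 (log2 change 0.60 to 0.91, adjusted p = 0.15 to 0.26). DESeq2 made the second and the third but not the first (adjusted p = 0.14 by DESeq2).

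**Figure D2:**
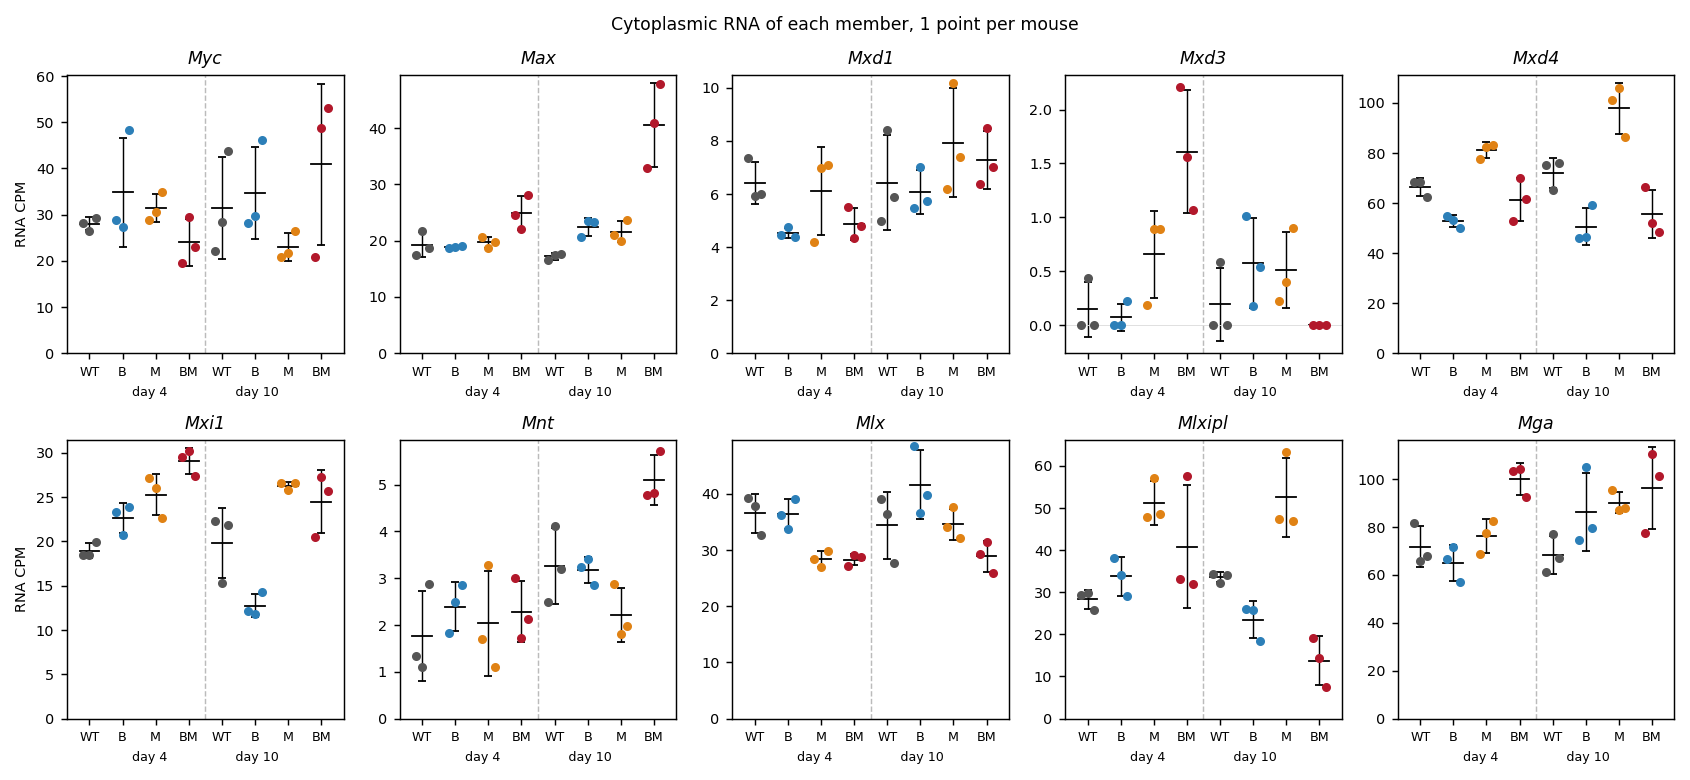
RNA CPM of each member in every mouse, by genotype and day, on a linear axis. Points are mice, and black lines are means with SD. Myc RNA overlaps between genotypes, while Mlxipl RNA is higher in M than in WT at both days and lowest in BM at day 10.

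The gap between Myc RPFs and RNA appeared as a higher TE in every mouse with the transgene. Log2 TE of Myc was -0.64, -3.38 and -1.16 in WT, -0.56, -1.20 and -0.46 in B, 1.09, 0.90 and 0.81 in M and 1.16, 0.99 and 1.26 in BM at day 4. At day 10 it was -2.08, -1.33 and -1.28 in WT, -0.79, -1.41 and -0.48 in B, 1.05, 1.09 and 1.09 in M and 1.45, 1.30 and 1.62 in BM. The 12 transgene mice lay between 0.81 and 1.62 and the 12 others between -3.38 and -0.46. The log2 difference in TE at day 4 was 2.25 ± 0.47 (SE, adjusted p = 0.032) in M, a call lost without WT day 4 mouse 3 or M day 4 mouse 1 or 2 (log2 change 2.17 to 2.31, adjusted p = 0.11 to 0.22) and not made by DESeq2 (adjusted p = 0.16 by DESeq2). In BM it was 2.44 ± 0.50 (SE, adjusted p = 0.015), a call lost without WT day 4 mouse 3 (log2 change 2.51, adjusted p = 0.12). At day 10 the differences were 2.56 ± 0.46 (adjusted p = 0.74) in M and 2.95 ± 0.68 (adjusted p = 0.18) in BM and were not called. RPFs and RNA of 1 mouse are paired, and with the mouse as a replicate block the values became 2.60 (adjusted p = 1.5e-06) in M and 2.99 (adjusted p = 3.4e-05) in BM. Without BM mouse 1 and without the block, the BM value at day 10 was 2.97 (adjusted p = 0.0016). The M value at day 10 without M mouse 3 and without the block was 2.57 (adjusted p = 0.018). Because the transgene and the endogenous gene are summed, these TE values do not compare the translation of 1 transcript. RPFs and RNA were also aligned by different programs. How many transgene reads each placed on the mouse gene was not tested.

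**Figure D3:**
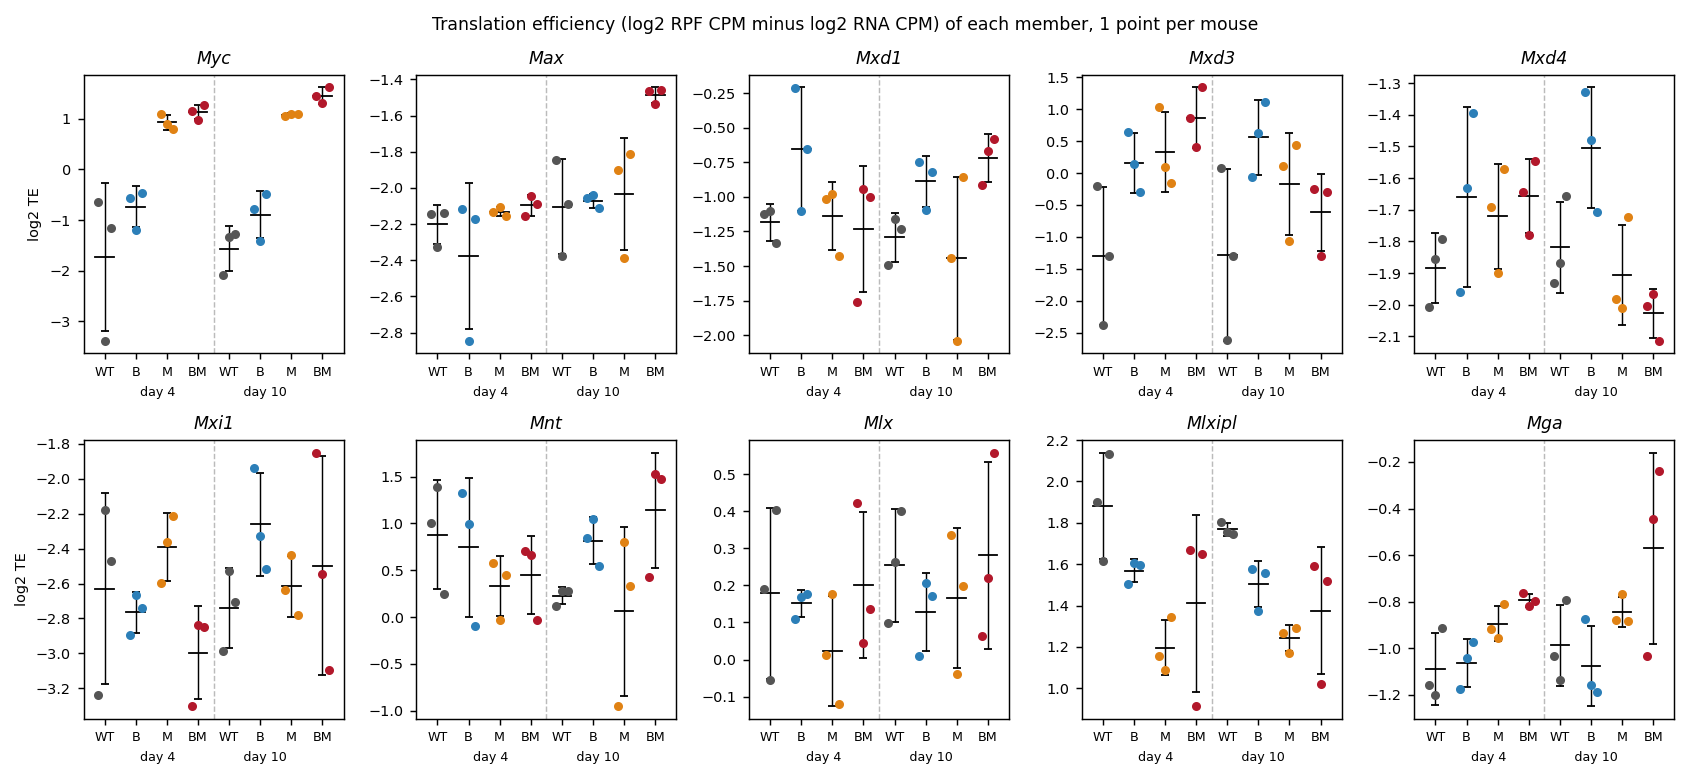
Log2 TE (log2 RPF CPM minus log2 RNA CPM) of the members in every mouse, by genotype and day. Points are mice. For Myc the M and BM mice lie above 0 and the WT and B mice below it.

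Few TE tests of the other members passed. In WT comparisons at day 4, 0 of 9 (all genes tested: 0.0488%) TE tests passed in B, 2 of 8 (all genes tested: 0.980%) in M and 1 of 9 (all genes tested: 2.29%) in BM. At day 10 the counts were 0 of 9 (all genes tested: 0.0470%) in B, 0 of 9 (all genes tested: 0%) in M and 0 of 9 (all genes tested: 0.259%) in BM. Over the 27 member tests at day 10, edgeR called 0, DESeq2 2 and the fit with the mouse as a block 3, with 4 at an unadjusted p under 0.05. In B, 0 members passed an unadjusted p under 0.05 or DESeq2 at either day. The called member beside Myc was Mlxipl in M at day 4, where log2 TE fell from 1.90, 1.62 and 2.13 in WT to 1.16, 1.09 and 1.34 in M. DESeq2 called 1 of these 2 in M, Mlxipl, and 1 in BM, Myc. The difference for Mlxipl was -0.67 ± 0.15 (SE, adjusted p = 0.055), a call lost without WT day 4 mouse 1 or 3 or M day 4 mouse 1 or 2 (log2 change -0.67 to -0.55, adjusted p = 0.20 to 0.44). Its value at day 10 was -0.54 ± 0.18 (adjusted p = 1.00), and -0.54 (adjusted p = 0.068) with the block. In BM the TE difference of Mlxipl was -0.51 ± 0.24 (adjusted p = 0.48) at day 4 and -0.37 ± 0.47 (adjusted p = 0.82) at day 10. Without BM mouse 1, Mnt (1.26, adjusted p = 0.050) and Mga (0.65, adjusted p = 0.030) joined Myc among the TE calls at day 10, in a fit that called 2336 of 10627 genes. With all 3 BM mice the TE difference of Mnt was 0.98 ± 0.52 (adjusted p = 0.55) and that of Max 0.62 ± 0.28 (adjusted p = 0.49). Log2 TE of Max was -1.85, -2.37 and -2.09 in WT and -1.46, -1.54 and -1.46 in BM, without overlap.

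Max (ENSMUSG00000059436, GRCm39 chr12:76984043-77009009, minus strand), the shared dimerisation partner, was called against WT in BM and in neither M nor B. At day 10 its RPFs were 4.55, 3.27 and 4.09 CPM in WT, 4.89, 5.66 and 5.31 in B, 5.56, 3.74 and 6.69 in M and 12.0, 14.1 and 17.4 in BM. Each BM mouse exceeded every mouse of the other 3 genotypes. The log2 change in BM was 1.84 ± 0.23 (SE, adjusted p = 0.0013) in RPFs and 1.22 ± 0.17 (SE, adjusted p = 0.00085) in RNA. RNA showed the same separation, at 16.6, 17.4 and 17.7 CPM in WT and 33.0, 40.8 and 47.8 in BM. At day 4 the change was smaller. RPFs went from 3.86, 4.25 and 4.18 to 5.44, 5.31 and 6.55 CPM, with a log2 change of 0.52 ± 0.17 (SE, adjusted p = 0.033), a call lost without WT day 4 mouse 1 or BM day 4 mouse 3 (log2 change 0.42 to 0.47, adjusted p = 0.10 to 0.12). In RNA it was 0.37 ± 0.15 (SE, adjusted p = 0.063), a call lost without WT day 4 mouse 1 or 3 or BM day 4 mouse 1 or 3 (log2 change 0.29 to 0.39, adjusted p = 0.10 to 0.21). In M and B the RPF changes of Max ran from -0.18 to 0.42 on the log2 scale, and 0 of those 4 tests were called.

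Mga (ENSMUSG00000033943, GRCm39 chr2:119727694-119800062, plus strand), which encodes the largest protein of the network, had more RPFs in M and BM than in WT. Its RPFs at day 4 were 36.7, 28.6 and 36.1 CPM in WT, 36.3, 40.1 and 47.2 in M and 61.1, 59.1 and 53.3 in BM. The BM mice lay above the WT and M mice, with a log2 change against WT of 0.79 ± 0.11 (SE, adjusted p = 0.00015) in RPFs and 0.48 ± 0.11 (SE, adjusted p = 0.0028) in RNA. In M at day 4 the log2 change was 0.32 ± 0.13 (SE, adjusted p = 0.098), a call lost without WT day 4 mouse 1, 2 or 3 or M day 4 mouse 2 or 3 (log2 change 0.19 to 0.38, adjusted p = 0.12 to 0.33). At day 10 its RPFs were 29.9, 35.1 and 38.7 CPM in WT, 51.9, 51.3 and 47.8 in M and 37.9, 81.5 and 86.1 in BM. The M mice did not overlap WT (0.54 ± 0.11, adjusted p = 0.021). In BM, mouse 1 lay within the WT range while its mates were over 80 CPM, and the change of 0.98 ± 0.30 (SE, adjusted p = 0.038) was lost without WT day 10 mouse 1 or 2 or BM day 10 mouse 2 or 3 (log2 change 0.78 to 0.97, adjusted p = 0.10 to 0.14). Without mouse 1 it was 1.27 (adjusted p = 1.2e-05). Mga RNA was higher at day 10 in M (0.40 ± 0.11, adjusted p = 0.048), a call lost without WT day 10 mouse 1 or 3 or M day 10 mouse 1 (log2 change 0.33 to 0.38, adjusted p = 0.12 to 0.17). In BM the RNA value was 0.49 ± 0.16 (SE, adjusted p = 0.044), a call lost without WT day 10 mouse 1 or 3 or BM day 10 mouse 2 or 3 (log2 change 0.38 to 0.45, adjusted p = 0.11 to 0.19). In B the RPF change was -0.14 ± 0.12 (adjusted p = 0.59) at day 4 and 0.23 ± 0.14 (adjusted p = 0.30) at day 10.

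The partners of MGA in its repressor complex (E2f6, L3mbtl2, Pcgf6, Tfdp1, Cbx3, Rnf2, Ring1, Rybp and Yaf2) were split. In RPFs against WT at day 4, 1 of 9 were higher and 2 lower (median log2 change -0.10) in M, and 4 of 9 were higher and 2 lower (median log2 change 0.37) in BM. At day 10, 2 of 9 were higher and 2 lower (median log2 change -0.01) in M, and 2 of 9 were higher and 1 lower (median log2 change 0.30) in BM. In B, 0 of 9 were higher and 0 lower (median log2 change -0.11) at day 4 and 0 of 9 were higher and 1 lower (median log2 change -0.01) at day 10. Without BM mouse 1 the BM counts at day 10 became 5 higher and 2 lower, in a fit where 3830 of all 11475 genes were higher and 3781 lower. Tfdp1, a dimer partner of E2F proteins, had 20.7 CPM against 8.33 in WT (log2 change 1.33 ± 0.13, adjusted p = 1.7e-05) in BM at day 4 and 20.2 CPM against 8.62 in WT (log2 change 1.22 ± 0.17, adjusted p = 0.0021) at day 10. The Polycomb subunit gene Pcgf6 had 11.6 CPM against 5.24 in WT (log2 change 1.12 ± 0.23, adjusted p = 0.0078) in BM at day 10. Rybp, which encodes a RING1 and YY1 binding protein, was lower in BM at day 4, with 5.51 CPM against 10.4 in WT (log2 change -0.90 ± 0.16, adjusted p = 0.0011).

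Mnt (ENSMUSG00000000282, GRCm39 chr11:74721338-74736836, plus strand), a MAX-dependent repressor, was raised in BM at day 10. Mnt RPFs were 2.97, 5.32 and 4.21 CPM in WT, 6.37, 7.72 and 4.62 in B, 1.54, 3.66 and 2.85 in M and 6.79, 14.8 and 16.8 in BM. The BM mice lay above WT, and BM mouse 1 overlapped B. The log2 change against WT was 1.61 ± 0.38 (SE, adjusted p = 0.014), and 1.92 (adjusted p = 2.8e-05) without mouse 1. Mnt RNA was 2.48, 4.11 and 3.19 CPM in WT and 4.77, 4.82 and 5.71 in BM, with a log2 change of 0.62 ± 0.28 (adjusted p = 0.11). At day 4 its RPF changes were -0.32 ± 0.25 (adjusted p = 0.38) in M and 0.05 ± 0.29 (adjusted p = 0.91) in BM.

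Mxd1 (ENSMUSG00000001156, GRCm39 chr6:86624024-86646218, minus strand), the MXD repressor linked to terminal differentiation, was at 1.75, 3.78 and 2.52 RPF CPM in WT and 3.42, 5.43 and 4.79 in BM at day 10. The groups overlapped, with a log2 change of 0.75 ± 0.33 (adjusted p = 0.11), which was 0.93 (adjusted p = 0.019) without BM mouse 1. Its rise within BM from day 4 (1.59, 2.29 and 2.45 CPM) to day 10 was called, at 1.07 ± 0.28 (SE, adjusted p = 0.023). Marker sums of some other liver cells moved with it in BM RPFs. Those of Kupffer cells, neutrophils, lymphocytes and stellate cells rose without overlap between the days. The endothelial (616 to 691 against 658 to 848 CPM), cholangiocyte (36.1 to 53.9 against 35.7 to 63.3) and erythroid (207 to 290 against 176 to 755) sums overlapped. The 9 summed Kupffer cell markers went from 452 to 487 CPM at day 4 to 1010 to 1099 at day 10 in BM, with 8 of 9 higher (all genes tested: 22.7% higher), and were 799 to 921 and 641 to 891 CPM in WT. The 4 summed neutrophil markers went from 4.96 to 5.44 to 12.6 to 16.7 CPM in BM, with 3 of 4 higher, against 8.74 to 22.4 and 4.90 to 12.2 in WT. The part of these cells in the Mxd1 values was not tested.

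Mxd3 (ENSMUSG00000021485, GRCm39 chr13:55472981-55477908, minus strand), the MXD protein expressed in proliferating cells, was nearly absent from WT and counted mainly in BM at day 4. Its RPF counts at day 4 were 2, 0 and 0 in WT, 5, 3 and 4 in B, 12, 16 and 11 in M and 75, 37 and 54 in BM. At day 10 they were 3, 0 and 0 in WT, 16, 10 and 27 in B, 7, 3 and 21 in M and 3, 0 and 2 in BM. BM held the most Mxd3 footprints at day 4 and hardly any at day 10. In B the ratio of day 10 to day 4 was 3.54 (95% exact interval 1.87 to 7.28, 53 against 12 RPFs), and in M it was 0.699 (95% exact interval 0.422 to 1.15, 31 against 39 RPFs). Of the 31 M footprints at day 10, 21 came from mouse 3. Without that mouse the fitted log2 change between days in M was -1.56, against -0.50 with all 3. Mxd3 passed the filter in these fits through its day 4 mice, so no p is given. With so few counts in WT, ratios of summed CPM are given with intervals that cover counting error only. Against WT at day 4 the ratio was 15.4 (95% exact interval 3.98 to 131, 39 against 2 RPFs) in M and 49.7 (95% exact interval 13.5 to 413, 166 against 2 RPFs) in BM. For B it was 5.03 (95% exact interval 1.12 to 46.3, 12 against 2 RPFs) at day 4. The day 10 ratio was 12.5 (95% exact interval 4.06 to 62.7, 53 against 3 RPFs) in B, 7.57 (95% exact interval 2.36 to 38.7, 31 against 3 RPFs) in M and 1.17 (95% exact interval 0.227 to 7.51, 5 against 3 RPFs) in BM. Mxd3 entered the fits against WT at day 4 only through the M and BM mice, so no p is given for it. At day 10 Mxd3 was too low to enter the fits against WT.

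The 17 proliferation genes listed beside Mxd3 (among them Mki67, Top2a, Cdk1 and Mcm2) were also highest in BM at day 4. Summed, they lay at 114 to 122 RPF CPM in WT, 158 to 197 in B, 456 to 514 in M and 994 to 1702 in BM at day 4. The day 10 sums were 129 to 179.8 in WT, 365 to 655 in B, 259 to 719.9 in M and 201 to 288 in BM. One M mouse set the upper end at day 10, with the middle mouse at 272. In BM against WT, 17 of 17 were higher and 0 lower (median log2 change 4.85) at day 4, and 6 of 16 were higher and 0 lower (median log2 change 0.74) at day 10, which became 6 higher and 2 lower without BM mouse 1. Within BM, 16 of 17 were lower at day 10 than at day 4, beside 22.6% of all genes tested. The Mxd3 ratio of day 10 to day 4 in BM was 0.0333 (95% exact interval 0.0107 to 0.0794, 5 against 166 RPFs).

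Mxd4 (ENSMUSG00000037235, GRCm39 chr5:34331227-34345240, minus strand), the most abundant MXD member, was higher in M at day 4 and lower in BM at day 10. Mxd4 RPFs at day 4 were 17.0, 18.8 and 18.0 CPM in WT and 23.96, 22.07 and 27.98 in M, without overlap, with a log2 change of 0.49 ± 0.11 (SE, adjusted p = 0.010). RNA gave 0.29 ± 0.09 (SE, adjusted p = 0.043), a call lost without WT day 4 mouse 3 or M day 4 mouse 3 (log2 change 0.24 to 0.27, adjusted p = 0.11 to 0.16). At day 10, RPFs were 19.7, 17.8 and 24.03 CPM in WT, 25.5, 26.2 and 26.1 in M and 16.5, 13.3 and 11.2 in BM. The BM mice were all below the WT mice and the M mice all above them. In BM the log2 change was -0.60 ± 0.21 (SE, adjusted p = 0.055) in RPFs, a call lost without WT day 10 mouse 1 or 3 or BM day 10 mouse 2 or 3 (log2 change -0.64 to -0.47, adjusted p = 0.12 to 0.18). The BM change in RNA was -0.37 ± 0.16 (SE, adjusted p = 0.095), a call lost without WT day 10 mouse 1 or 3 or BM day 10 mouse 2 or 3 (log2 change -0.37 to -0.28, adjusted p = 0.17 to 0.26), and it turned to 0.03 under library totals. With BM mouse 1 left out, the values were -0.75 (adjusted p = 0.0034) in RPFs and -0.53 (adjusted p = 0.0048) in RNA. M at day 10 had 0.34 ± 0.13 (adjusted p = 0.11) in RPFs and 0.44 ± 0.12 (SE, adjusted p = 0.036) in RNA, the RNA call lost without WT day 10 mouse 2 or M day 10 mouse 1 or 2 (log2 change 0.38 to 0.42, adjusted p = 0.10 to 0.13). In B, Mxd4 RNA was lower at both days, at -0.33 ± 0.10 (SE, adjusted p = 0.064) at day 4 and -0.51 ± 0.15 (SE, adjusted p = 0.046) at day 10. The day 4 call was lost without WT day 4 mouse 1, 2 or 3 or B day 4 mouse 2 or 3 (log2 change -0.38 to -0.28, adjusted p = 0.10 to 0.22), and that of day 10 was lost without WT day 10 mouse 1 or 3 or B day 10 mouse 1 or 2 (log2 change -0.49 to -0.44, adjusted p = 0.11 to 0.18). RPFs of Mxd4 in B were not called (-0.11 ± 0.13, adjusted p = 0.71 at day 4 and -0.22 ± 0.14 (adjusted p = 0.31) at day 10).

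Mxi1 (ENSMUSG00000025025, GRCm39 chr19:53298852-53364241, plus strand), also called Mxd2, had RNA above WT in B at day 4 and below WT in B at day 10. RNA was 18.5, 18.4 and 19.9 CPM in WT and 23.3, 20.7 and 23.9 in B at day 4, and 22.4, 15.3 and 21.8 in WT and 12.1, 11.9 and 14.3 in B at day 10. All B mice were above WT at day 4 and all below it at day 10. The log2 change was 0.26 ± 0.13 (adjusted p = 0.35) at day 4 and -0.62 ± 0.19 (SE, adjusted p = 0.063) at day 10, the latter a call lost without WT day 10 mouse 1 or 3 or B day 10 mouse 1 or 2 (log2 change -0.58 to -0.54, adjusted p = 0.13 to 0.21). In M and BM at day 4 Mxi1 RNA was 27.2, 26.1 and 22.7 and 29.5, 30.3 and 27.4 CPM. The changes were 0.42 ± 0.13 (SE, adjusted p = 0.043) in M, a call lost without WT day 4 mouse 1 or M day 4 mouse 1 or 2 (log2 change 0.37 to 0.41, adjusted p = 0.10 to 0.17), and 0.62 ± 0.12 (SE, adjusted p = 0.0015) in BM. Its RPFs were raised in M at day 4, at 0.66 ± 0.26 (SE, adjusted p = 0.094), a call lost without WT day 4 mouse 1 or 3 or M day 4 mouse 1, 2 or 3 (log2 change 0.37 to 0.77, adjusted p = 0.12 to 0.28). At day 10 the BM mice had 20.5, 27.3 and 25.7 RNA CPM, with a change of 0.30 ± 0.20 (adjusted p = 0.26), which was 0.41 (adjusted p = 0.081) without mouse 1.

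The 10 listed corepressor genes through which MXD proteins and MNT act (Sin3a, Sin3b, Hdac1, Hdac2, Ncor1, Sap30, Sap18, Rbbp4, Rbbp7 and Suds3) were mostly raised in BM at day 4. In RPFs, 2 of 10 were higher and 2 lower (median log2 change 0.03) in M, and 6 of 10 were higher and 1 lower (median log2 change 0.31) in BM. At day 10, 2 of 10 were higher and 0 lower (median log2 change 0.12) in B, 1 of 10 were higher and 2 lower (median log2 change 0.19) in M, and 3 of 10 were higher and 2 lower (median log2 change 0.31) in BM. Without BM mouse 1 the last counts were 6 higher and 2 lower, while in that fit 3830 of all 11475 genes were higher and 3781 lower. Within the list, Rbbp7 and Rbbp4, which encode closely related histone chaperones, went opposite ways in BM at day 10. Rbbp7 had 257 CPM against 121 in WT (log2 change 1.07 ± 0.23, adjusted p = 0.010), whereas Rbbp4 had 81.9 CPM against 196 in WT (log2 change -1.27 ± 0.15, adjusted p = 0.00094). Suds3, a SIN3 complex subunit, had 14.1 CPM against 33.5 in WT (log2 change -1.25 ± 0.26, adjusted p = 0.0083). Hdac2, a histone deacetylase, had 49.1 CPM against 31.9 in WT (log2 change 0.65 ± 0.10, adjusted p = 0.00038) in BM at day 4.

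Mlx (ENSMUSG00000017801, GRCm39 chr11:100978080-100983043, plus strand), the hub of the ChREBP arm, was lower in M and BM at day 4. Mlx RPFs were 45.0, 36.5 and 43.5 CPM in WT, 28.8, 30.7 and 27.6 in M and 36.7, 30.2 and 31.8 in BM. The M mice lay below all WT mice, while BM mouse 1 lay just above the lowest WT mouse. The log2 change was -0.49 ± 0.10 (SE, adjusted p = 0.0065) in M and -0.32 ± 0.11 (SE, adjusted p = 0.034) in BM. The BM call was lost without WT day 4 mouse 1 or 3 or BM day 4 mouse 2 or 3 (log2 change -0.29 to -0.26, adjusted p = 0.11 to 0.12), and it turned to 0.11 under library totals. RNA gave -0.37 ± 0.12 (SE, adjusted p = 0.044) in M, a call lost without WT day 4 mouse 1 or M day 4 mouse 1 or 2 (log2 change -0.37 to -0.32, adjusted p = 0.12 to 0.13). In BM the RNA change was -0.37 ± 0.12 (SE, adjusted p = 0.025), which turned to 0.18 under library totals. At day 10 the RPF changes were -0.07 ± 0.11 (adjusted p = 0.71) in M and -0.23 ± 0.16 (adjusted p = 0.28) in BM and were not called.

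Mlxipl (ENSMUSG00000005373, GRCm39 chr5:135118744-135168615, plus strand), which encodes ChREBP, had the clearest contrast between genotypes of the MLX arm: its RNA was higher in M at both days, and its RNA and RPFs were lower in B and BM at day 10. At day 10, Mlxipl RPFs were 121, 110.3 and 115 CPM in WT, 78.9, 68.0 and 55.2 in B, 115, 143 and 116 in M and 58.4, 30.0 and 22.6 in BM. Neither B nor BM overlapped WT. The log2 change was -0.80 ± 0.13 (SE, adjusted p = 0.0042) in B and -1.66 ± 0.32 (SE, adjusted p = 0.0069) in BM, and -2.15 (adjusted p = 8.0e-07) in BM without mouse 1. RNA at day 10 was 34.4, 32.3 and 34.1 CPM in WT, 26.1, 25.9 and 18.4 in B, 47.4, 63.4 and 47.0 in M and 19.1, 14.4 and 7.53 in BM. The RNA changes were -0.52 ± 0.16 (SE, adjusted p = 0.060) in B, a call lost without WT day 10 mouse 1 or 3 or B day 10 mouse 3 (log2 change -0.52 to -0.37, adjusted p = 0.13 to 0.17), and -1.28 ± 0.27 (SE, adjusted p = 0.0069) in BM. M moved the other way in RNA, at 0.65 ± 0.14 (SE, adjusted p = 0.014), with 0.11 ± 0.12 (adjusted p = 0.60) in RPFs. At day 4, RNA was 29.4, 29.9 and 25.7 CPM in WT, 47.9, 57.2 and 48.6 in M and 33.1, 57.6 and 31.9 in BM. The M change was 0.86 ± 0.12 (SE, adjusted p = 0.00019) in RNA and 0.19 ± 0.10 (adjusted p = 0.19) in RPFs, where WT had 111, 92.6 and 114 CPM and M 108, 122 and 124. In BM at day 4 mouse 2 was the highest in RNA, and the change of 0.53 ± 0.20 (SE, adjusted p = 0.051) was lost without WT day 4 mouse 3 or BM day 4 mouse 2 (log2 change 0.21 to 0.46, adjusted p = 0.17 to 0.26). At day 10 the hepatocyte marker sum was 87561 to 111951 RPF CPM in WT, 47422 to 53808 in B, 47886 to 56430 in M and 25788 to 35534 in BM. It lay below WT in B, M and BM. The part of the hepatocyte content in the Mlxipl values was not tested.

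**Figure D4:**
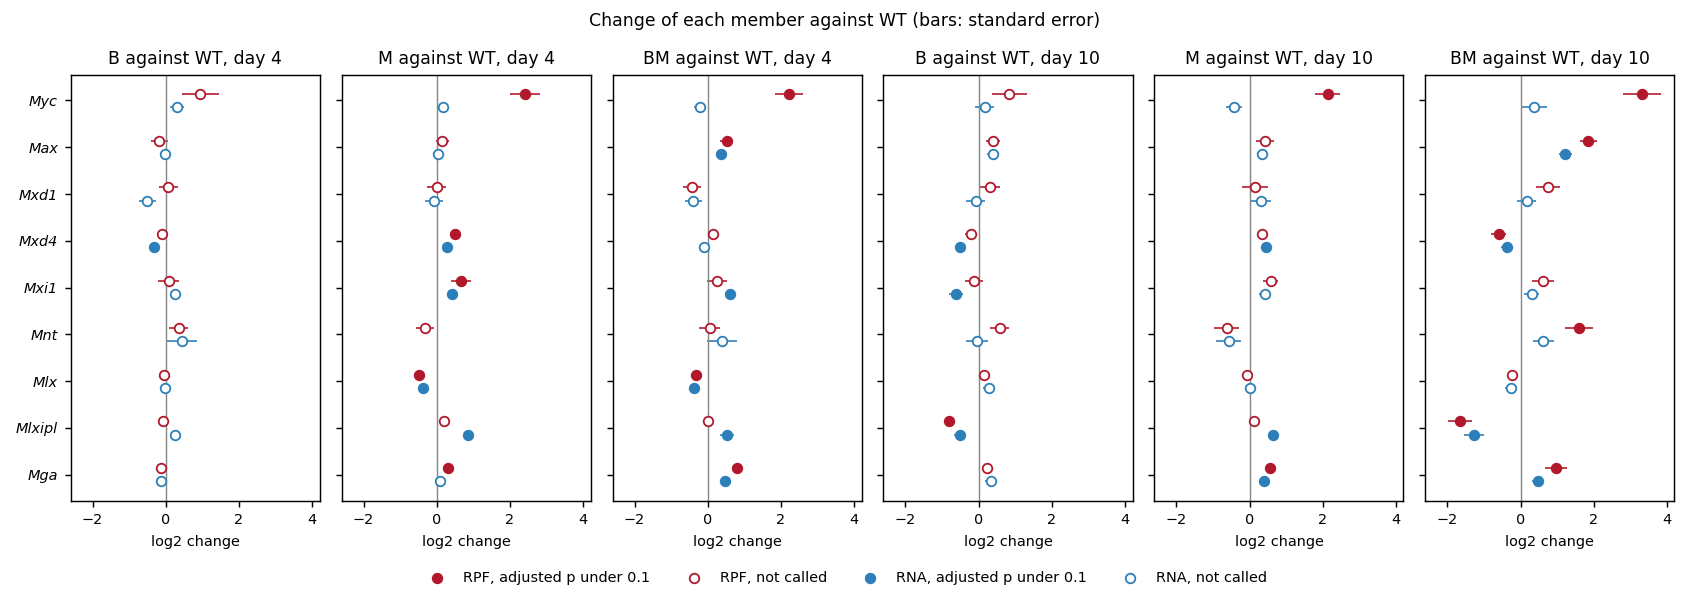
Log2 change against WT of the members other than Mxd3 in B, M and BM at each day, RPFs in red and RNA in blue. Bars are standard errors and filled points passed an adjusted p of 0.1. Myc, counted from whatever transgene and endogenous reads aligned, is raised in RPFs and not called in RNA in M and BM. Mlxipl falls in BM at day 10 in both RPFs and RNA.

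The 24 listed ChREBP target genes, which include enzymes of glycolysis, fructose use and fat synthesis as well as regulators and a transporter (Txnip, Gckr and Slc2a2 among them), were mostly lower in BM at both days, and those called in B and M at day 10 were all lower. In RPFs at day 4, 7 of 24 were higher and 2 lower (median log2 change 0.13) in B, 6 of 23 were higher and 3 lower (median log2 change 0.14) in M, and 1 of 23 were higher and 17 lower (median log2 change -0.65) in BM. At day 10, 0 of 24 were higher and 11 lower (median log2 change -0.48) in B, 0 of 23 were higher and 9 lower (median log2 change -0.34) in M, and 2 of 23 were higher and 15 lower (median log2 change -1.33) in BM. RNA gave 2 of 21 genes higher and 14 lower (median log2 change -0.56) in BM at day 4 and 0 of 22 genes higher and 13 lower (median log2 change -1.20) at day 10. In M at day 4, where Mlxipl RNA was raised, RNA had 10 of 22 genes higher and 2 lower (median log2 change 0.32). The shares of all genes called higher and lower in RNA were 13.5% and 10.3% in M and 21.3% and 20.6% in BM at day 4 and 22.9% and 22.8% in BM at day 10. The hepatocyte marker sum also lay below WT in BM at day 4, at 40611 to 49091 RPF CPM against 93027 to 105939, and its part in the target values was not tested. Without BM mouse 1 the day 10 RPF counts were 4 higher and 17 lower, where 3830 of all 11475 genes were higher and 3781 lower. The direction of the targets and that of Mlxipl were not always alike: in M at day 10, 0 of 23 targets were called higher beside the rise in Mlxipl RNA, and in BM at day 4 the Mlxipl RPF change was 0.02 ± 0.09 (adjusted p = 0.89). For reading this and the other lists, the share of all genes tested that was called higher and lower in RPFs was 6.21% and 6.26% in B, 18.5% and 14.7% in M and 26.2% and 24.7% in BM at day 4. At day 10 these shares were 13.1% and 12.1% in B, 10.6% and 8.80% in M and 24.5% and 22.3% in BM.

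Single targets changed by more than Mlxipl itself. In BM at day 10, RPFs of malic enzyme Me1 were 45.2 CPM against 795 in WT (log2 change -4.15 ± 0.28, adjusted p = 0.00012). The desaturase gene Scd1 had 266 CPM against 4084 in WT (log2 change -3.95 ± 0.24, adjusted p = 0.00010). Acacb, an acetyl-CoA carboxylase, had 46.8 CPM against 369 in WT (log2 change -2.99 ± 0.26, adjusted p = 0.00027). Pnpla3, which encodes a lipid droplet lipase, had 0 RPFs in all 3 BM mice and a mean of 3.28 CPM in WT, at least 15.0-fold lower against a floor of 3 counts per library. With Pnpla3 set at that bound the median of the list stayed at -1.33. In B at day 10, the liver pyruvate kinase gene Pklr had 130.1 CPM against 419 in WT (log2 change -1.71 ± 0.25, adjusted p = 0.0024), and in M at day 10 Scd1 had 1657 CPM against 4084 in WT (log2 change -1.30 ± 0.16, adjusted p = 0.0035). In the other direction, in M at day 4 the glucose transporter gene Slc2a2 had 524 CPM against 262 in WT (log2 change 1.03 ± 0.11, adjusted p = 0.00016). In BM at day 4, Thrsp, a lipogenic gene, had 40.5 CPM against 143 in WT (log2 change -1.79 ± 0.24, adjusted p = 0.00013), and G6pc1, the glucose-6-phosphatase gene, had 266 CPM against 911 in WT (log2 change -1.75 ± 0.18, adjusted p = 2.2e-05). The 9 listed genes of the fasting response, summed, were at 2512 RPF CPM in BM day 10 mouse 1 and at 8454 and 10171 in mice 2 and 3, against 3123 to 3734 in WT. At day 4 the same sum was 5535 to 7389 RPF CPM in WT, 3488 to 4511 in B, 3951 to 4455 in M and 2253 to 3004 in BM, lowest in BM and without overlap with the other genotypes. Mice were kept with free access to chow per the study's methods, the time since feeding at harvest is not given in the sources used here, and its part in these values was not tested.

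**Figure D5:**
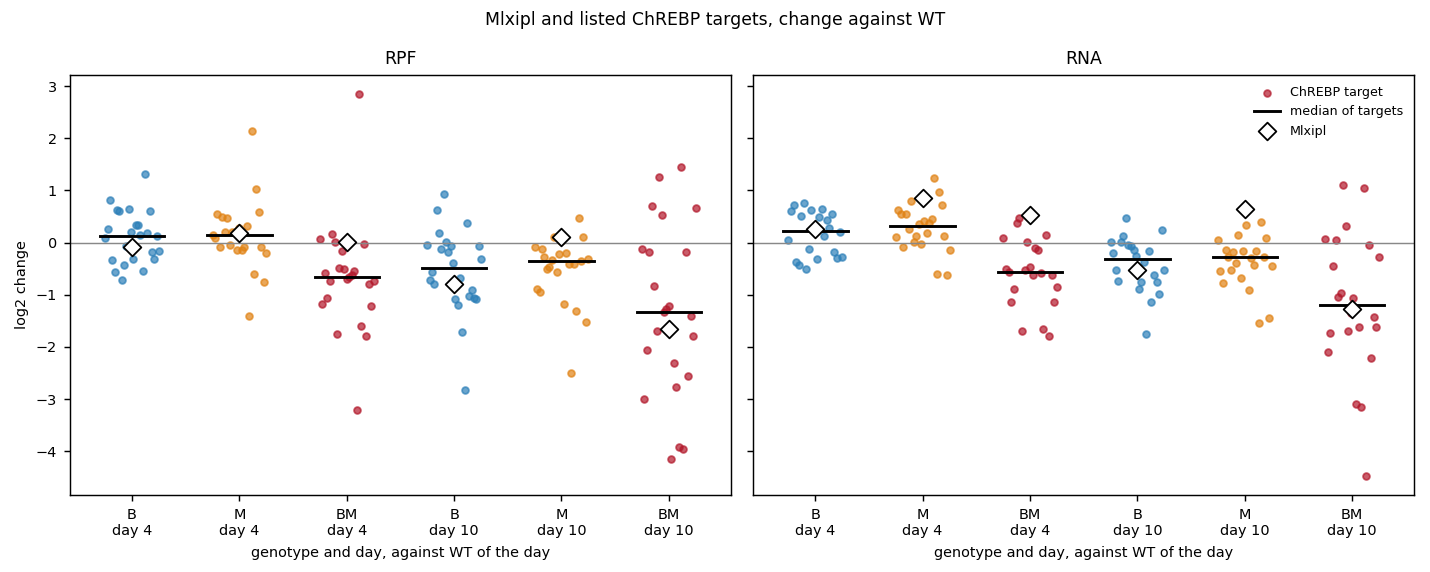
Log2 change against WT of the listed ChREBP target genes in RPFs and RNA, by genotype and day. Points are genes, and Pnpla3 in BM at day 10 is drawn at its bound in RPFs. Most points lie below 0 in BM at both days.

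Genes that MYC is known to activate (24 listed, mostly of ribosome production and nucleotide synthesis) were mostly higher in M and BM. At day 4, 1 of 24 were higher and 4 lower (median log2 change -0.04) in B, 16 of 24 were higher and 2 lower (median log2 change 0.36) in M, and 20 of 24 were higher and 2 lower (median log2 change 0.76) in BM. At day 10, 8 of 24 were higher and 0 lower (median log2 change 0.25) in B, 14 of 24 were higher and 2 lower (median log2 change 0.59) in M, and 19 of 24 were higher and 2 lower (median log2 change 1.06) in BM. Leaving out BM day 10 mouse 1 gave 19 higher and 4 lower for this list. The nucleolar gene Nop56 reached 125 CPM against 18.9 in WT (log2 change 2.71 ± 0.27, adjusted p = 0.00055) in BM at day 10. One exception was Ldha, lactate dehydrogenase, in M at day 4, with 673 CPM against 1339 in WT (log2 change -0.96 ± 0.11, adjusted p = 0.00035). Of the 7 listed genes that MYC is known to repress, 1 of 5 were higher and 1 lower (median log2 change -0.01) in B, 0 of 5 were higher and 3 lower (median log2 change -0.39) in M and 1 of 5 were higher and 2 lower (median log2 change 0.06) in BM in RPFs at day 4. At day 10, 2 of 5 were higher and 0 lower (median log2 change 0.16) in B, 0 of 5 were higher and 2 lower (median log2 change -0.31) in M and 2 of 5 were higher and 2 lower (median log2 change -0.01) in BM. The cell cycle inhibitor Cdkn1a was among the higher ones in BM at day 10, with 99.1 CPM against 14.7 in WT (log2 change 2.74 ± 0.34, adjusted p = 0.0013). In B, which has no MYC transgene, Cdkn1a was lower at day 4, with 27.6 CPM against 79.6 in WT (log2 change -1.54 ± 0.28, adjusted p = 0.0070), and higher at day 10, with 38.3 CPM against 14.7 in WT (log2 change 1.36 ± 0.23, adjusted p = 0.0044). Ndrg1, in M at day 10, had 6.64 CPM against 34.1 in WT (log2 change -2.37 ± 0.15, adjusted p = 0.00054), and in B at day 4 it was higher, with 47.0 CPM against 25.6 in WT (log2 change 0.86 ± 0.13, adjusted p = 0.0024).

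The 10 listed MYC cofactors (histone acetyltransferase and remodelling subunits) had, in RPFs, 4 of 10 genes higher and 0 lower (median log2 change 0.14) in M at day 4, and 7 of 10 genes higher and 0 lower (median log2 change 0.49) in BM. At day 10, 3 of 10 were higher and 0 lower (median log2 change 0.29) in M, and 5 of 10 were higher and 0 lower (median log2 change 0.43) in BM. Leaving out BM day 10 mouse 1 gave 6 higher and 1 lower for the cofactors and 5 higher and 1 lower for the 9 turnover genes named next. Ruvbl2, a helicase subunit, had 31.2 CPM against 13.2 in WT (log2 change 1.26 ± 0.13, adjusted p = 2.0e-05) in BM at day 4. The 9 listed regulators of MYC protein turnover had 4 of 9 genes higher and 0 lower (median log2 change 0.33) in M and 5 of 9 genes higher and 0 lower (median log2 change 0.29) in BM at day 4. The same list had 5 of 9 genes higher and 0 lower (median log2 change 0.73) in BM at day 10, where the ubiquitin ligase gene Huwe1 had 458 CPM against 191 in WT (log2 change 1.25 ± 0.28, adjusted p = 0.011). In B at day 4, 1 of 10 were higher and 0 lower (median log2 change 0.07) among the cofactors, and 2 of 9 were higher and 0 lower (median log2 change 0.04) among the turnover genes. Of 3 further network factors, Mycn was too low to enter the fit of BM against WT at day 10. Mycl, a MYC paralogue, had 3.84 CPM against 1.40 in WT (log2 change 1.43 ± 0.35, adjusted p = 0.016) in BM at day 10, whereas its RNA in BM at day 4 was lower, with 2.13 CPM against 5.59 in WT (log2 change -1.38 ± 0.28, adjusted p = 0.0016). In M at day 4 Mycl RPFs were at 3.66 CPM against 2.15 in WT (log2 change 0.79 ± 0.26, adjusted p = 0.050). Mlxip, which encodes the ChREBP paralogue MondoA, had, in RPFs in BM at day 10, 4.97 CPM against 2.05 in WT (log2 change 1.24 ± 0.31, adjusted p = 0.018). In B at day 10 Mycl went the other way, with 0.315 CPM against 1.40 in WT (log2 change -2.13 ± 0.47, adjusted p = 0.014).

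BM was then compared with each single allele, which asks what the other allele adds. In RPFs 3 of 10 tested members (all genes tested: 38.2%) differed from M and 5 of 10 (all genes tested: 44.7%) from B at day 4. At day 10 they were 5 of 9 (all genes tested: 32.7%) and 5 of 9 (all genes tested: 36.5%). Both RPF counts of day 4 include Mxd3, which against B passed the filter only through BM. The RNA counts were 4 of 9 (all genes tested: 30.5%) and 5 of 9 (all genes tested: 34.8%) at day 4 and 5 of 9 (all genes tested: 32.9%) and 5 of 9 (all genes tested: 31.8%) at day 10. DESeq2 called 3 members against M and 4 against B in RPFs at day 4 and 5 and 6 at day 10, and in RNA 2 and 2 at day 4 and 5 and 4 at day 10. The calls it did not make were, at day 4, RNA of Myc and Max against M, RNA of Max, Mxi1 and Mlx and RPFs of Mlx against B and, at day 10, RNA of Mnt against B (adjusted p = 0.11 to 0.27 by DESeq2). TE gave 0 of 9 (all genes tested: 0.0943%) and 1 of 9 (all genes tested: 1.14%) at day 4 and 0 of 9 (all genes tested: 0.142%) and 0 of 9 (all genes tested: 0.169%) at day 10. Over these 36 TE tests edgeR called 1, DESeq2 0, and 4 had an unadjusted p under 0.05. The TE call was Myc against B at day 4, at 1.80 ± 0.43 (SE, adjusted p = 0.077), lost without B day 4 mouse 1 or BM day 4 mouse 1, 2 or 3 (log2 change 1.75 to 1.91, adjusted p = 0.15 to 0.33). At day 10 Myc TE against B was 2.27 ± 0.66 (adjusted p = 0.55), and 2.34 (adjusted p = 0.00032) with the mouse as a replicate block.

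The β-catenin allele on top of MYC separated Mga and Mxd3 at day 4, and Max, Mnt, Mxd4 and Mlxipl at day 10. At day 4, Mga RPFs were higher in BM than in M by 0.47 ± 0.10 (SE, adjusted p = 0.0077) on the log2 scale. Mxd3 RPFs in BM were 3.23 (95% exact interval 2.27 to 4.70, 166 against 39 RPFs) times those in M at day 4. The ratio went the other way at day 10, at 0.154 (95% exact interval 0.0468 to 0.399, 5 against 31 RPFs). Mxd4 was lower at day 4, at -0.36 ± 0.13 (SE, adjusted p = 0.061) in RPFs and -0.40 ± 0.11 (SE, adjusted p = 0.014) in RNA. At day 10, Max was higher by 1.42 ± 0.26 (SE, adjusted p = 0.011) and Mnt by 2.23 ± 0.43 (SE, adjusted p = 0.014) in RPFs. Mnt RNA was higher by 1.21 ± 0.30 (SE, adjusted p = 0.020). Mxd4 RPFs differed by -0.94 ± 0.18 (SE, adjusted p = 0.013) and Mlxipl RPFs by -1.78 ± 0.34 (SE, adjusted p = 0.014). Mlxipl RNA differed by -1.90 ± 0.29 (SE, adjusted p = 0.0028), and no BM mouse overlapped an M mouse. Myc RPFs were higher in BM than in M at day 10 by 1.20 ± 0.35 (SE, adjusted p = 0.050), although at day 4 the value was -0.20 ± 0.11 (adjusted p = 0.20). Myc RNA also differed, by 0.83 at day 10 and -0.39 at day 4, as given above. That day 10 call of Myc was lost without M day 10 mouse 1 or 2 or BM day 10 mouse 2 or 3 (log2 change 0.83 to 1.20, adjusted p = 0.14 to 0.16), and the Mxd4 RPF call of day 4 was lost without M day 4 mouse 1 or 3 or BM day 4 mouse 1 (log2 change -0.38 to -0.25, adjusted p = 0.11 to 0.17). With BM mouse 1 left out, the day 10 comparison with M also called Mga in RPFs (0.77, adjusted p = 0.0010), RNA (0.24, adjusted p = 0.076) and TE (0.52, adjusted p = 0.033) and Mxd1 in RPFs (0.83, adjusted p = 0.055), in fits that called 6867 of 11604 genes in RPFs, 5761 of 11440 genes in RNA and 1481 of 10724 genes in TE.

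Set against B, BM at day 4 had more Myc (1.29 ± 0.29, adjusted p = 0.0070), Max (0.70 ± 0.21, adjusted p = 0.029) and Mga (0.93 ± 0.10, adjusted p = 8.4e-05) in RPFs. Mxd3 RPFs in BM were 9.87 (95% exact interval 5.50 to 19.5, 166 against 12 RPFs) times those in B at day 4. The ratio went the other way at day 10, at 0.0930 (95% exact interval 0.0290 to 0.231, 5 against 53 RPFs). Mlx was lower at day 4 by -0.27 ± 0.10 (SE, adjusted p = 0.054), a value that turned to 0.05 under library totals. At day 10, Myc RPFs differed by 2.52 ± 0.50 (SE, adjusted p = 0.015) and Max RPFs by 1.46 ± 0.21 (SE, adjusted p = 0.0059). Mlxipl was lower still than in B, at -0.85 ± 0.33 (SE, adjusted p = 0.097) in RPFs. The call of Mlx at day 4 was lost without B day 4 mouse 3 or BM day 4 mouse 2 or 3 (log2 change -0.23 to -0.20, adjusted p = 0.18 to 0.22). That of Mlxipl at day 10 was lost without B day 10 mouse 1, 2 or 3 or BM day 10 mouse 2 or 3 (log2 change -0.98 to -0.58, adjusted p = 0.14 to 0.27). Mnt RPFs were higher in BM than in B by 1.05 ± 0.37 (SE, adjusted p = 0.073), a call lost without B day 10 mouse 1, 2 or 3 or BM day 10 mouse 2 or 3 (log2 change 0.82 to 1.24, adjusted p = 0.12 to 0.20). Mxi1 RNA was higher in BM than in B at day 10, by 0.95 ± 0.19 (SE, adjusted p = 0.0085). In RPFs Mxi1 was called at 0.77 ± 0.30, adjusted p = 0.096, a call lost without B day 10 mouse 1, 2 or 3 or BM day 10 mouse 1 or 2 (log2 change 0.56 to 0.91, adjusted p = 0.14 to 0.26). Leaving out BM day 10 mouse 1 added RPF calls of Mga (1.07, adjusted p = 0.00050), Mxd4 (-0.50, adjusted p = 0.022) and Mxd1 (0.66, adjusted p = 0.027), an RNA call of Myc (0.56, adjusted p = 0.062) and TE calls of Myc (2.28, adjusted p = 0.024) and Mga (0.76, adjusted p = 0.064). Those fits called 7170 of 11747 genes in RPFs, 5375 of 11614 genes in RNA and 1678 of 10892 genes in TE.

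Day 10 was then compared with day 4 within each genotype. In RPFs and RNA more of all genes were called in BM and B than in WT and M, and the members' counts stand beside those shares. In RPFs 0 of 9 tested members (all genes tested: 4.44%) differed between days in WT, 2 of 9 (all genes tested: 34.5%) in B, 0 of 10 (all genes tested: 0.909%) in M and 7 of 10 (all genes tested: 45.3%) in BM. The RNA counts were 0 of 9 (all genes tested: 2.32%) in WT, 2 of 9 (all genes tested: 15.2%) in B, 0 of 9 (all genes tested: 0.778%) in M and 4 of 9 (all genes tested: 39.7%) in BM. TE gave 0 of 9 (all genes tested: 0.491%) in WT, 0 of 9 (all genes tested: 0.709%) in B, 0 of 9 (all genes tested: 0%) in M and 0 of 9 (all genes tested: 0.468%) in BM. In WT an unadjusted p under 0.05 was reached by 0 members in RPFs and 1 in RNA, and in M by 3 and 4. DESeq2 called 0 in all 4 of these. Without M day 10 mouse 3, M had RPF calls of Myc (-0.41, adjusted p = 0.039) and Mlx (0.46, adjusted p = 0.057), beside Mxd3, which passed the filter through its day 4 mice. In RNA, Myc (-0.56, adjusted p = 0.058) and Mxd4 (0.35, adjusted p = 0.083) were then called. The share of all genes called in those fits is not given here. Over the 36 TE tests, edgeR and DESeq2 called 0 and 2 had an unadjusted p under 0.05. The BM count in RNA stood near the share of all genes, and that in RPFs includes Mxd3, which passed the filter only through its day 4 mice. Within BM, RPFs rose for Myc (1.08 ± 0.35, adjusted p = 0.051), Max (1.29 ± 0.20, adjusted p = 0.0038) and Mnt (1.78 ± 0.42, adjusted p = 0.018). They fell for Mxd4 (-0.53 ± 0.19, adjusted p = 0.064) and Mlxipl (-1.54 ± 0.33, adjusted p = 0.012). DESeq2 called 2 members in B and 7 in BM in RPFs and 1 and 4 in RNA, without the RNA calls of Mlxipl in B (adjusted p = 0.11 by DESeq2) and Mxd1 in BM (adjusted p = 0.22 by DESeq2). In B, Mlxipl fell from day 4 to day 10 in RPFs (-0.58 ± 0.14, adjusted p = 0.020) and Mga rose (0.40 ± 0.13, adjusted p = 0.055), and Mxi1 RNA fell (-0.82 ± 0.16, adjusted p = 0.0084). Leaving out mice ended some of these. The BM call of Myc was lost without BM day 4 mouse 1, 2 or 3 or BM day 10 mouse 2 or 3 (log2 change 0.73 to 1.17, adjusted p = 0.11 to 0.16), and that of Mxd4 was lost without BM day 4 mouse 2 or 3 or BM day 10 mouse 2 or 3 (log2 change -0.49 to -0.41, adjusted p = 0.16 to 0.20). The Mga call in B was lost without B day 4 mouse 1 or 3 or B day 10 mouse 2 (log2 change 0.28 to 0.36, adjusted p = 0.17 to 0.18). Without BM day 10 mouse 1, Mga RPFs rose in BM between the days (0.51, adjusted p = 0.0011), as did Myc RNA (1.08, adjusted p = 7.1e-05), while Mxd4 RNA fell (-0.29, adjusted p = 0.084) and TE of Max (0.60, adjusted p = 0.080) and Mga (0.43, adjusted p = 0.041) rose, in fits that called 8083 of 11764 genes in RPFs, 6483 of 11627 genes in RNA and 2609 of 10904 genes in TE.

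Whether an effect against WT itself differed between the days was tested by an interaction. For M, 0 of 10 tested members (all genes tested: 1.18%) in RPFs, 0 of 9 (all genes tested: 1.20%) in RNA and 0 of 9 (all genes tested: 0%) in TE differed, with 1, 1 and 0 at an unadjusted p under 0.05 and 0 by DESeq2 in each. For BM the counts were 6 of 10 (all genes tested: 35.7%) in RPFs, 2 of 9 (all genes tested: 29.9%) in RNA and 0 of 9 (all genes tested: 0.310%) in TE, where 0 reached an unadjusted p under 0.05 or a DESeq2 call. The 6 RPF calls include Mxd3, which passed the filter only through BM at day 4, and Mxd1 (1.18 ± 0.43, adjusted p = 0.062), a call lost without WT day 4 mouse 1 or BM day 4 mouse 1 or WT day 10 mouse 1 or 3 or BM day 10 mouse 2 or 3 (log2 change 0.92 to 1.14, adjusted p = 0.11 to 0.15). The BM effect on RPFs was larger at day 10 for Max, by 1.33 ± 0.27 (SE, adjusted p = 0.0042), and for Mnt, by 1.57 ± 0.53 (SE, adjusted p = 0.047). It was more negative for Mlxipl, by -1.66 ± 0.36 (SE, adjusted p = 0.0060), and for Mxd4, by -0.72 ± 0.24 (SE, adjusted p = 0.041). For Myc the difference was 1.09 ± 0.78 (adjusted p = 0.32) and for Mga 0.19 ± 0.35 (adjusted p = 0.72), and neither was called. The Mnt call was lost without BM day 4 mouse 3 or WT day 10 mouse 1 or BM day 10 mouse 3 (log2 change 1.30 to 1.36, adjusted p = 0.10 to 0.11), and the Mxd4 call was lost without WT day 10 mouse 3 (log2 change -0.60, adjusted p = 0.10). Without BM day 10 mouse 1 the difference for Myc was 1.43 (adjusted p = 0.071) and that for Mga 0.46 (adjusted p = 0.039). In RNA that mouse's removal gave 0.92 (adjusted p = 0.020) for Myc and -0.42 (adjusted p = 0.067) for Mxd4, in fits that called 6765 of 11814 genes in RPFs and 5173 of 11899 genes in RNA. Without WT day 4 mouse 2 the Myc difference was also called. In RNA, Max (0.85 ± 0.22, adjusted p = 0.014) and Mlxipl (-1.81 ± 0.37, adjusted p = 0.0033) differed between the days.

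Across the 24 mice, each member's log2 RPF CPM was also set beside that of 12000 genes. These correlations share genotype, day and scaling and are given as a description. The genes most like Max were Eif4e2 (0.92), Mat2a (0.92), Taf4b (0.91), and those most like Myc were Cisd3 (0.88), Supv3l1 (0.87), Agk (0.87) (Pearson r in parentheses). Mxd3 was closest to the mitotic and replication genes Shcbp1 (0.94), Ncaph (0.94), Cip2a (0.93). Mxd1 was closest to Fcer1g (0.83), H2-M3 (0.81), Cd68 (0.81), of which Fcer1g and Cd68 are myeloid cell genes. Mlxipl was closest to 2810459M11Rik (0.95), Lrrc42 (0.95), Vwce (0.95), and Mga to Zc3h13 (0.93), Hnrnpab (0.93), Ddx46 (0.92). The others had Sesn3 (0.88), Olfml1 (0.85), Slc26a6 (0.84) for Mxd4, Hspa2 (0.90), Psmc1 (0.89), Bcl2l1 (0.88) for Mnt, Oxld1 (0.87), Zfp512b (0.81), Smyd2 (0.79) for Mxi1 and Unc45a (0.84), Fam50a (0.81), Ndufaf3 (0.79) for Mlx. Among the members, the closest pairs were Mxd4 with Mlxipl (r = 0.74), Myc with Mga (r = 0.72), Max with Mga (r = 0.68) and Myc with Max (r = 0.62). The pairs that ran most against each other were Mxd4 with Mnt (r = -0.84), Max with Mlxipl (r = -0.82), Mnt with Mlxipl (r = -0.81) and Mxi1 with Mlx (r = -0.70).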

How the data were processed

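RPFs and cytoplasmic RNA came from the livers of 24 mice, with both libraries made from each liver. Per the study's methods, the authors trimmed RPF reads with Cutadapt 1.18, removed duplicates by molecular identifier and aligned them with BBmap to the most abundant transcript of each gene (GENCODE vM27, GRCm39), and they deposited counts per coding sequence without codons at its ends. The authors aligned rRNA-depleted RNA with Bowtie2 2.3.5.1 and estimated it with RSEM 1.3.3, and deposited expected counts and TPM per isoform. Here, expected counts and TPM were summed per gene, expected counts were rounded, and a transcript not listed in an RPF library was taken as 0 (1689 to 3019 of 16269). TPM and CPM per kilobase of coding sequence served only for levels between genes. The kilobases are those of the full coding sequence, with the end codons that were not counted. This lowers the level of short genes (Max, 453 bases) by more than that of long ones (Mga, 9009 bases).

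Counts were tested in R 4.3.3 with edgeR 4.0.16 (glmQLFit and glmQLFTest, TMM factors within library type, filterByExpr with a minimum count of 10 and a minimum total of 15) on the mice of the groups compared, with Benjamini-Hochberg adjustment over all genes and calls at an adjusted p under 0.1, the threshold the study stated for TE and used here for all 3 measures. TE was the interaction of group and library type. The SE beside a log2 change is its absolute value divided by the square root of the quasi-likelihood F statistic. DESeq2 1.42.0 was an alternative, and the others are given in the closing section. Log2 CPM used a prior count of 2. Numbers of replicates mark mice: RPF and RNA deviations of one mouse from its group correlated at 0.156 to 0.605 in all 24 mice, so the mouse pairs the 2 libraries, and the blocked TE value is given where it changes a call. The scripts were tested on simulated data. Each replicate was an individual mouse. Intervals and floors cover counting error only.

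The members, gene lists and tests were chosen with earlier results of these data known. All 10 members were named, and of each list up to 4 genes per comparison with the largest called change whose groups did not overlap; those printed are a selection of these. Symbols, positions and promoter windows came from GENCODE vM39 on GRCm39, where 20614 of 20622 gene identifiers had a symbol. A gene of the corepressor list is not reported here and is not in its counts.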

Additional observations from a re-analysis of the deposited data

Results flagged for a closer look

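The BM effect against WT differed between day 10 and day 4 for several members by edgeR's quasi-likelihood test of the interaction (day 10 minus day 4, log2 scale, adjusted over all genes). In RPFs the difference was 1.33 for Max (adjusted p = 0.0042), 1.18 for Mxd1 (adjusted p = 0.062), 1.57 for Mnt (adjusted p = 0.047), -0.72 for Mxd4 (adjusted p = 0.041) and -1.66 for Mlxipl (adjusted p = 0.0060). For Mxd3 the fitted difference was -5.26, a value that depends on the prior count because the 3 WT mice together held 2 RPFs at day 4 and 3 at day 10, and it was -1.83 without WT day 10 mouse 1; Mxd3 passed the filter only through BM at day 4, so no test is read from it. The Mxd1 call was lost without WT day 4 mouse 1, BM day 4 mouse 1, WT day 10 mouse 1 or 3, or BM day 10 mouse 2 or 3, each left out alone (0.92 to 1.14, adjusted p = 0.107 to 0.153). The Mnt call was lost without BM day 4 mouse 3, WT day 10 mouse 1 or BM day 10 mouse 3 (1.30 to 1.36, adjusted p = 0.105 to 0.110), and the Mxd4 call without WT day 10 mouse 3 (-0.60, adjusted p = 0.102). In RNA the difference was 0.85 for Max (adjusted p = 0.014) and -1.81 for Mlxipl (adjusted p = 0.0033). Mxi1 RNA in B lay above WT in all 3 mice at day 4 and below WT in all 3 at day 10, where B minus WT was -7.06 CPM (means of 12.8 and 19.8), and this difference between the days was not tested.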

How the results depend on the processing

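Of 438 member tests, 104 were called, and 53 of these were called under every alternative run. Counts of member calls moved by over 1.5 times in these cases. With library totals in place of TMM, RPF calls against WT at day 10 went from 9 to 19, RNA calls between days from 6 to 12 and TE calls of BM against the single alleles from 1 to 0. With DESeq2, RNA calls against WT at day 4 went from 10 to 5, TE calls against WT at day 10 from 0 to 2 and those of BM against the single alleles from 1 to 0. At an adjusted p under 0.05, RNA calls of BM against the single alleles went from 19 to 12 and TE calls there from 1 to 0. With only the isoform used for RPFs, RNA calls of BM against the single alleles were 11, TE calls there 0, and TE calls against WT at day 4 went from 3 to 1. With all 24 mice in 1 model, TE calls against WT were 1 at day 4 and 1 at day 10. With the mouse as a replicate block, TE calls were 3 against WT at day 10 and 2 for BM against the single alleles, and the values are given with the results. Across groups the same number marked no pair (in no comparison did every same-numbered pair correlate over 0.1), and there the block gave 12, 11, 18, 8 and 6 RPF calls and 10, 10, 19, 7 and 2 RNA calls for WT day 4, WT day 10, BM against single alleles, days, and the difference of effects, where the fits without it gave 11, 9, 18, 9 and 6, and 10, 10, 19, 6 and 2. Leaving out 1 mouse at a time, in the same order, gave 7 to 11, 7 to 10, 15 to 23, 7 to 12 and 3 to 8 calls in RPFs, 6 to 10, 4 to 12, 15 to 21, 5 to 8 and 2 to 4 in RNA, and 0 to 3, 0 to 3, 0 to 4, 0 to 2 and 0 to 0 in TE. Under library totals 6 directions reversed: Mlx RPFs in BM against WT at day 4 (0.11) and against B (0.047), Mlx RNA in BM at day 4 (0.18), Myc RNA in BM at day 4 (0.32), and Mxd4 RNA in BM at day 4 (0.43) and day 10 (0.034). Over all genes, TE calls against WT at day 10 in BM were 27, 540 with the block, 104 with DESeq2 and 2336 without mouse 1, and RPF calls there went from 5309 to 7611 without mouse 1. With the block they were 643 in place of 241 in BM and 281 in place of 102 in M at day 4, 30 in place of 5 in B at day 4, 282 in place of 5 in B at day 10 and 36 in place of 0 in M at day 10, and DESeq2 gave 28 in B and 3 in M at day 10. Counts over the gene lists without BM day 10 mouse 1 were chosen after seeing the data. The RPF counts include Mxd3 where it passed the filter through the group in which it was high. RNA depth limits Mxd3, with at most 14 counts in a library. The cause of these changes was not tested.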
